A study of Mus musculus with 15 samples.

Results

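Fibroblasts that lack both p27 and stathmin were compared with wild type fibroblasts across all well-detected genes. The members are the 3 double knock-out arrays and the 4 wild type arrays, 7 of the 15 arrays of the series, chosen by the genotype in their labels. All cells were mouse embryonic fibroblasts on a C57B6 background, taken from embryos at 13.5 days post coitum, grown to passage 3 and harvested at high confluence after 24 h without serum. The double knock-out carries the p27 and the stathmin deletions together, and the wild type cells carry neither. Each array held the sample in Cy5 and a pool of reference RNA from such fibroblasts in Cy3, with no dye swap, so every level below is a log2 ratio of sample over reference and every difference is double knock-out minus wild type. Arrays of the same genotype are labelled biological replicates, but the labels do not say whether they came from separate embryos, and a p-value then measures only the spread between these samples, which may be technical. The remaining 8 arrays, 4 of p27 knock-out and 4 of stathmin knock-out cells, entered the fit for the estimate of spread and are given beside the double knock-out where a result concerns them. Every log2 value printed for a single knock-out is its difference from wild type.

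p27, the product of Cdkn1b, binds cyclin-dependent kinases and holds cells in G1, and its level is high in serum-starved, confluent fibroblasts. Stathmin, the product of Stmn1, binds tubulin dimers and favours the shrinkage of microtubules. p27 also binds stathmin in the cytoplasm, and the series title places the study on a function of p27 outside kinase inhibition.

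On the arrays, 18686 genes were tested. A difference above 0 was read for 49.3% of them, their median log2 difference was -0.00, their median absolute difference was 0.14, and the 95% interval of a difference reached a median of 0.52 to either side. Over the 7 arrays, 59.3 to 75.5% of spots had a Cy5 signal well above background, and the median sample signal ran from 251.9 to 446.7 units; the small number of arrays limits the precision. All 13 fibroblast markers were well above background on all 7 arrays. Macrophage markers were detected too, 9 of 10 on all 7 arrays, whereas the endothelial markers Pecam1, Cdh5 and Tie1, the epithelial markers Epcam and Cldn4, the neuronal marker Snap25 and the cartilage marker Matn1 were above background on none. Double knock-out 1 stood apart: its ratios correlated across genes at 0.06 with double knock-out 2 and 0.09 with double knock-out 3, which correlated with each other at 0.57. Wild type 3 and 4 correlated at 0.84, the highest value among the 7 arrays. Whether these come from separate RNA is not given in the sources used here, and they were counted as 2 arrays; with both averaged into 1, limma called 0 genes and the Stmn1 probe A_52_P319161 still passed. Double knock-out 1 was also the array with the lowest signal of the Y-linked gene Ddx3y, at -7.48 against 0.52 and 0.82 on the other double knock-out arrays and -0.27 to 0.83 on the wild type arrays. The X-inactivation transcript Xist read 0.63 on double knock-out 1 and 0.20 on wild type 1, and between -2.34 and -1.76 on the other arrays. A genotype had the same place on each slide, and effects of that place and of the genotype cannot be told apart.

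The targeted genes were read by 5 probes. The Stmn1 probe A_52_P319161 read 0.71, 0.87, 0.80 and 0.64 on the 4 wild type arrays and -2.82, -2.68 and -2.80 on the 3 double knock-out arrays. The groups were far apart, with little spread inside either. This probe fell by 3.52 on the log2 scale, 11.5-fold (SE 0.208, limma adjusted p = 5e-06 over 27675 probes, lower on 3 of 3 arrays), and was the 1 probe of all tested that passed. With a trended, robust variance its difference was the same but its adjusted p was 0.0666. An exact two-sided permutation test over the 7 arrays gave 0.0286, the smallest value that 3 against 4 arrays allow. It remained well above background on all 3 double knock-out arrays.

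The brighter Stmn1 probe, A_51_P495641, which represents Stmn1 in counts of genes, read 0.33, -0.03, -0.49 and -0.21 in wild type and -0.03, -0.28 and -0.41 in double knock-out. Its groups overlapped fully, with a difference of -0.14 (SE 0.314). The files do not say which part of the gene either probe reads relative to the deletion. The tested Cdkn1b probe, A_51_P146126, read 0.93, -0.22, 0.08 and 0.08 in wild type and 0.19, -1.36 and -1.09 in double knock-out. Double knock-out 2 and 3 lay below all wild type arrays and double knock-out 1 above 3 of them, and the difference of -0.97 (SE 0.393) did not pass (limma adjusted p = 1; exact two-sided permutation p = 0.2). The dim Cdkn1b probe A_51_P169173, near background on most arrays and therefore not tested, ranged from 0.22 to 0.36 over the wild type arrays and from -0.18 to -0.08 over the double knock-out arrays. The fifth probe, A_52_P673863, was above background on none of the 7 arrays.

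**Figure D1:**
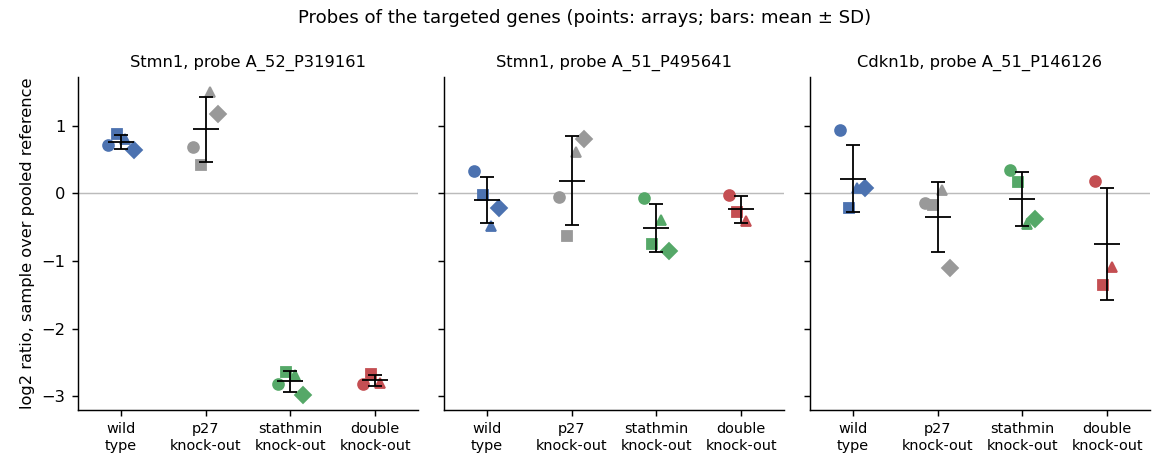
Log2 ratio of sample over pooled reference (y axis) for both Stmn1 probes and the tested Cdkn1b probe on the 15 arrays, by genotype; points are arrays, shaped by replicate number, and bars are the mean and SD. The Stmn1 probe on the left lies between -2.82 and -2.68 on the 3 double knock-out arrays, against 0.64 to 0.87 in wild type, while the other 2 probes overlap between these genotypes.

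At the level of genes the comparison asks what the joint loss of p27 and stathmin changes in quiescent fibroblasts. Limma called 0 of 18686 genes (0%) at an adjusted p under 0.05, and the smallest adjusted p was 0.107, for Rpl11. At an unadjusted p under 0.05 there were 436 genes, 202 higher (1.08%) and 234 lower (1.25%). That is a smaller share than this threshold gives by chance alone. Of 18192 genes with a value on all 7 arrays, 1155 (6.35%) had double knock-out arrays that did not overlap with the wild type arrays, 519 higher (2.85%) and 636 lower (3.5%). Without any effect of genotype, 3 independent arrays would all lie above 4 others in a share of 0.0286, and below them in the same share. The higher share was near it and the lower share somewhat above, so the count by itself is no measure of genotype effects. With arrays centred on their median in place of loess, the split was 1099 higher and 362 lower, so which side holds more genes depends on the scaling. Among the non-overlapping genes, 41 (0.225%) were higher and 72 (0.396%) lower by 1 or more on the log2 scale. In the single knock-outs, which share the wild type arrays, limma called 0 genes for p27 and 1 for stathmin (0.00535%), which was Rpl11. No gene described from here on passed the test in double knock-out, and each adjusted p that is not printed was above that of Rpl11.

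Rpl11, a protein of the large ribosomal subunit, had the smallest p. It read 1.72, 1.74, 1.61 and 1.12 in wild type and 0.28, -0.01 and -0.20 in double knock-out. All double knock-out arrays lay well below all wild type arrays, with a difference of -1.53 (SE 0.211, 95% interval -1.98 to -1.07, limma adjusted p = 0.107). In an alternative, arrays of the same replicate number were treated as pairs, a choice made from how these arrays deviated. With that number as a block the limma adjusted p of Rpl11 was 0.00351, the 1 gene then called (range over all alternatives 0.00176 to 1). The same gene differed from wild type by 0.03 in p27 knock-out and by -1.68 in stathmin knock-out. Of the ratio's difference, -0.50 lay in the sample channel, and the reference channel of this spot read 1.03 higher on the double knock-out arrays. A dimmer Rpl11 probe, A_52_P566208, differed by 0.08 (SE 0.506). The 39 cytosolic ribosomal proteins tested besides Rpl11 were spread around 0, with 19 above and 20 below, a median of -0.00, and 0 called.

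Rpl11 lies on chromosome 4, 1.58 Mb from Stmn1 (GRCm38.p6). Of the 14 genes with the smallest p on the lower side, it is the 1 gene there. On the higher side, 6 of the 14 lie on chromosome 4, which holds 916 of the 18192 genes. The nearest to Stmn1 is Pdik1l, a serine/threonine kinase gene 0.193 Mb away. It read -0.35, -0.79, -1.20 and -1.002 in wild type and 0.72, 0.99 and 0.79 in double knock-out. The gap between the groups was wider than the range of either, and the difference was 1.67 (SE 0.287, limma adjusted p = 0.346). It differed from wild type by 0.29 in p27 knock-out and by 1.36 in stathmin knock-out. The other Pdik1l probe, A_52_P361219, differed by -0.38 (SE 0.236), the opposite sign, and the mean of both probes by 0.65. 

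Asap3, an Arf GTPase-activating protein gene 1.74 Mb from Stmn1, read -1.15, -1.14, -2.07 and -1.58 in wild type and 0.51, 0.31 and -0.48 in double knock-out. The difference was 1.59 (SE 0.387), beside 1.00 in p27 knock-out and 1.96 in stathmin knock-out. Between these genes lies Fuca1, a lysosomal fucosidase, with a difference of 0.75 (SE 0.181). In stathmin knock-out it differed from wild type by 1.10. For Fuca1 the second probe, A_52_P179640, differed by 0.04 (SE 0.209). Further away on chromosome 4, 34.6 Mb from Stmn1, Efcab7, a regulator of hedgehog signalling at the cilium, differed by 1.42.

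Within 2 Mb of Stmn1, a window chosen after the values were seen, 11 of 76 genes (14.5%) did not overlap between the genotypes, 7 higher and 4 lower, against 6.35% over all genes. From 2 to 10 Mb the count was 14 of 183 (7.65%), and over the rest of the chromosome 43 of 656 (6.55%). The median absolute difference was 0.22 within 2 Mb and 0.14 over all genes. In that window it was 0.14 in p27 knock-out and 0.15 in stathmin knock-out, beside 0.19 and 0.16 over 10 Mb away. Around Cdkn1b on chromosome 6, 8 of 31 genes within 2 Mb (25.8%) and 8 of 88 from 2 to 10 Mb (9.09%) did not overlap. On the rest of the chromosome the count was 41 of 662 (6.19%). Within 10 Mb of Cdkn1b the median absolute difference was 0.25 in double, 0.25 in p27 and 0.24 in stathmin knock-out. Over 10 Mb away it was 0.14, 0.18 and 0.17. Whether the counts are tied to the deletions was not tested.

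Pbp2, a phosphatidylethanolamine-binding protein gene 0.389 Mb from Cdkn1b, read 0.67, 1.00, 1.69 and 1.502 in wild type and -2.58, -1.95 and -0.80 in double knock-out. Its difference of -2.99 (SE 0.728) was the largest of the 28 genes with the smallest p. Pbp2 differed from wild type by -3.82 in p27 knock-out and by -1.66 in stathmin knock-out. Lockd, a noncoding transcript that starts 0.009 Mb from the start of Cdkn1b, read 0.89, 0.32, 0.16 and 0.31 in wild type and -0.31, -0.54 and -0.61 in double knock-out, a difference of -0.91 (SE 0.297). Its single knock-out differences from wild type were -0.72 for p27 and -0.60 for stathmin. In the natural killer receptor cluster of the same chromosome, 4.56 Mb from Cdkn1b, Klra1 differed by -3.25. Its double knock-out arrays read -3.17, -3.94 and -0.58 against -0.55, 1.12, 1.26 and 0.90 in wild type, so that 1 array of each genotype almost met. Clec12b, an inhibitory lectin receptor gene in that region, was above background on all 3 double knock-out arrays and on none in wild type. Between these genotypes only double knock-out met the filter, so its higher reading there is no separate support. Its raw sample signal was 140.7 to 413.3 units in double knock-out and 92.7 to 97.6 in wild type. It differed from wild type by -0.08 in p27 knock-out and by -0.14 in stathmin knock-out. A lower bound put it at least 1.90-fold higher in double knock-out. The bound takes the mean of the double knock-out sample signal over the dimmest signal still well above background on the wild type arrays.

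**Figure D2:**
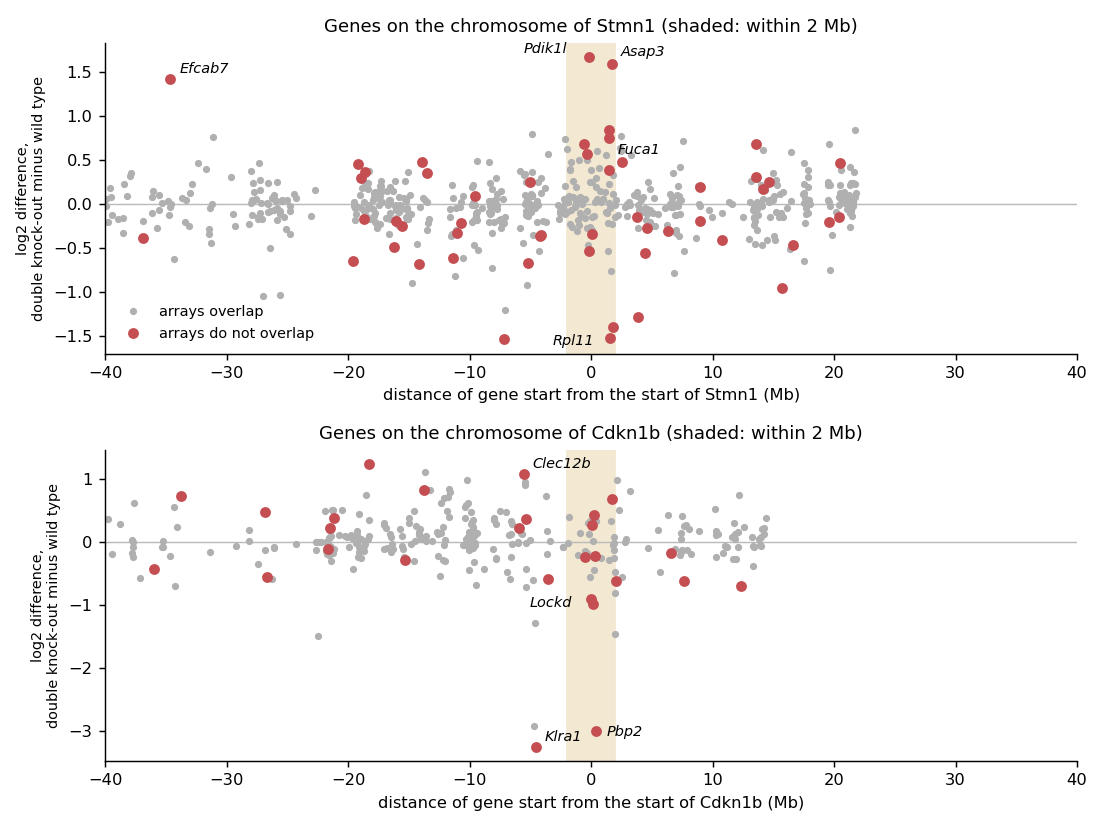
Log2 difference between double knock-out and wild type (y axis) against the distance of each gene's start from the start of Stmn1 or Cdkn1b (x axis, Mb). Red points are genes whose double knock-out and wild type arrays do not overlap, grey points the others, and the shaded band marks 2 Mb to either side, where 11 of 76 genes around Stmn1 and 8 of 31 around Cdkn1b are red.

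On the lower side, the gene after Rpl11 was Krt7, a keratin of simple epithelia. It read 1.10, 0.40, 1.06 and 1.07 in wild type and -0.89, -1.21 and -1.25 in double knock-out. The double knock-out arrays were close together and clear of all wild type arrays, at a difference of -2.02 (SE 0.332, 95% interval -2.74 to -1.31, limma adjusted p = 0.322). A second Krt7 probe, A_52_P410685, differed by -1.65 (SE 0.312). Krt7 was low in each single knock-out as well, by -1.61 for p27 and -1.78 for stathmin.

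Of 16 tested genes of simple-epithelium keratins and desmosomes, 12 were below 0 and 4 above, with a median of -0.23 and 0 called. In 6 of them (37.5%, against 3.5% of all genes in that direction) all double knock-out arrays lay below all wild type arrays. Krt80, another keratin, differed by -0.996 (SE 0.259). Dsp, which encodes desmoplakin and ties keratin to desmosomes, read -0.17, 1.26, 0.90 and 0.83 in wild type and -0.45, -1.18 and -0.45 in double knock-out, a difference of -1.40 (SE 0.457). Perp, a desmosome-associated p53 target, differed by -1.57 (SE 0.646). The list mean was -0.07 to 0.42 on the wild type arrays and -0.51 to -0.14 on the double knock-out arrays. The median difference of the list from wild type was -0.59 in p27 knock-out and -0.35 in stathmin knock-out. Without double knock-out 1, 14 of the 16 were below 0. The epithelial marker set shares genes with this list, Krt7 and Dsp among them, so it is no independent observation. Of its 6 tested markers, 5 were below 0. Their mean ran from 0.21 to 0.69 in wild type and from -0.68 to 0.05 in double knock-out. Epcam and Cldn4 were not above background anywhere. In bulk RNA, fewer epithelial cells and less of these transcripts per cell cannot be told apart.

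**Figure D3:**
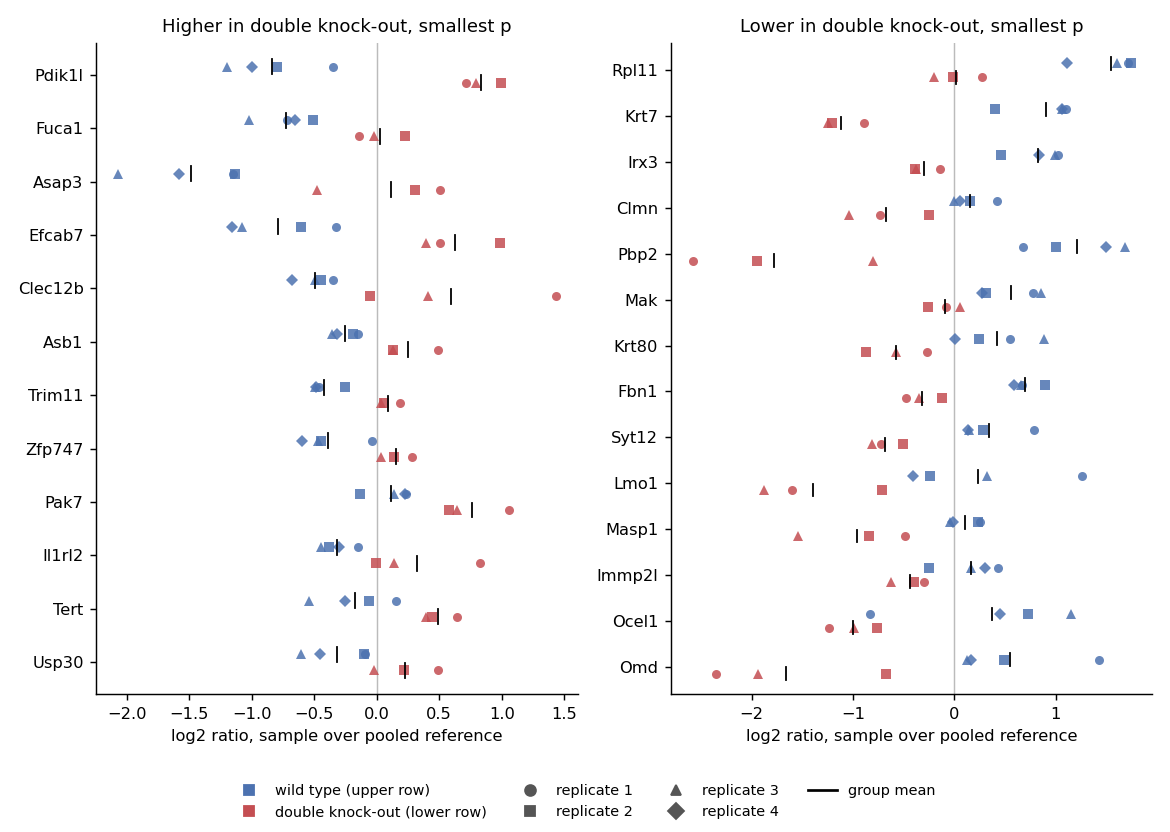
Log2 ratio of sample over pooled reference (x axis) for 26 of the 28 genes with the smallest p, 12 higher and 14 lower, in order of p from the top; points are arrays shaped by replicate number, wild type above and double knock-out below, and ticks are group means. In all but Ocel1 the groups are separate, as in Krt7, where wild type lies between 0.40 and 1.10 and double knock-out between -1.25 and -0.89; none of these genes passed the test.

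Several genes of patterning and of skeletal tissue were among the lower ones with the smallest p, while their lists as wholes overlapped between genotypes. Of 43 limb and body-wall mesenchyme factors, 16 were above 0 and 27 below, with a median of -0.12 and 0 called, and their array means ran from -0.23 to 0.25 in wild type and from -0.47 to -0.06 in double knock-out. In that list 5 of 41 genes (12.2%, against 6.35% of all genes) did not overlap, 1 higher and 4 lower. Of 18 cartilage and bone genes, 5 were above 0 and 13 below, with a median of -0.22 and 0 called, and their array means ran from -0.44 to 0.07 and from -0.64 to -0.29. Without slide 1 the limb list had 21 above and 22 below, with a median of -0.01. Irx3, a homeobox transcription factor of limb and neural patterning, read 1.03, 0.46, 0.99 and 0.84 in wild type and -0.14, -0.38 and -0.37 in double knock-out, a difference of -1.13 (SE 0.257). It differed from wild type by -0.82 in p27 knock-out and by -0.94 in stathmin knock-out. Omd, which encodes osteomodulin, a small leucine-rich proteoglycan of bone matrix, differed by -2.21 (SE 0.647). Its double knock-out arrays read -2.35, -0.68 and -1.94 against 0.13 to 1.43 in wild type. The single knock-out differences of Omd from wild type were -1.71 for p27 and -0.03 for stathmin. Lmo1, a LIM-domain transcription cofactor, differed by -1.63 (SE 0.462), and Runx2, the master regulator of osteoblasts, by -0.74 (SE 0.284). Msx2, a homeobox gene of limb bud and skull, read -0.48, -0.63, 0.42 and 0.32 in wild type and -1.04, -1.46 and -1.70 in double knock-out.

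The Hoxd cluster, which sets position along the limb and trunk, was not uniform. At its 5′ end Hoxd13 read 0.84, -0.23, -0.28 and -0.57 in wild type and -2.07, -0.21 and -1.77 in double knock-out, so double knock-out 1 and 3 were low and double knock-out 2 lay among the wild type arrays. Hoxd11 differed by -0.70 and Hoxd10 by -0.62. Near the 3′ end Hoxd4 read -0.23, -0.95, -0.60 and -0.81 in wild type and 0.56, 0.21 and 0.29 in double knock-out, a difference of 1.00 (SE 0.53) in the opposite direction. Over the whole Hox list, 20 of 34 genes were above 0 and 14 below, with a median of 0.02, and 6 of 32 (18.8%, against 6.35% of all genes) did not overlap, 3 in each direction. The balance of signs turned with the slide as a block, to 10 above and 24 below (median -0.10), and without slide 1, to 12 above and 21 below.

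Matrix genes were among the lower ones. Collagen VI forms beaded filaments around fibroblasts, and laminins, nidogens and collagen IV build basement membranes. The list used here holds some members of these families, not all, and also Col15a1 and Col18a1. All 15 of its tested genes were below 0, with a median of -0.45 beside -0.00 over all genes, and 0 were called. For 3 of the 15 (20%, against 3.5% of all genes on the lower side) the arrays did not overlap. Col6a3, the long chain of collagen VI, read 0.35, 0.39, 0.46 and 0.29 in wild type and -0.61, -0.19 and -0.46 in double knock-out. Its wild type arrays lay within a narrow band and the difference was -0.79 (SE 0.235), beside 0.24 in p27 knock-out and 0.14 in stathmin knock-out. Of it, -0.45 (SE 0.147) lay in the sample channel and 0.34 in a brighter reference channel. Lamc1, the laminin chain shared by most laminins, differed by -0.47 (SE 0.262). Nid2, which links laminin to collagen IV and is named here after its values were seen, differed by -1.20 (SE 0.806).

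The list mean was -0.14, 0.10, 0.06 and 0.09 on the wild type arrays and -0.56, -0.23 and -0.43 on the double knock-out arrays. The single knock-outs had medians of 0.01 for p27 and 0.11 for stathmin over the same 15 genes; whether the double knock-out differs from them was not tested. Without double knock-out 1, 12 of the 15 genes were below 0 and the median was -0.34. Within the slides that hold both genotypes, the list differed by -0.42, -0.29 and -0.52. Cartilage and endothelial markers were mostly below 0 as well. Of the tested cartilage markers 0 of 4 were above 0, and their mean ran from -0.43 to 0.24 in wild type and from -1.40 to -0.38 in double knock-out. Of the tested endothelial markers 1 of 4 was above 0, with means of -0.27 to 0.36 and -0.86 to 0.05. Matn1 of cartilage and Pecam1, Cdh5 and Tie1 of endothelium were above background on none of the 7 arrays. The longer list of endothelial and pericyte markers had 2 of 12 above 0 and a median of -0.17, and Cspg4, a proteoglycan of pericytes, differed by -1.55 (SE 0.653). The part of these cells in the matrix genes was not tested.

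Among the other matrix glycoproteins, 16 of 22 were below 0, with a median of -0.26. Fbn1, fibrillin-1 of elastic microfibrils, read 0.67, 0.89, 0.65 and 0.59 in wild type and -0.47, -0.12 and -0.35 in double knock-out, a difference of -1.02 (SE 0.271). Of it, -0.47 lay in the sample channel and 0.55 in a brighter reference channel. A second Fbn1 probe, A_52_P224801, differed by -0.93 (SE 0.219). Eln, the elastin gene, read -0.12, -0.74, -0.48 and -0.41 in wild type and -2.16, -0.95 and -2.09 in double knock-out, a difference of -1.29 (SE 0.864). Masp1, a serine protease of the lectin pathway of complement, differed by -1.07 (SE 0.303). Fibrillar collagens and their modifying enzymes were below 0 in 15 of 19 genes, with a median of -0.23.

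**Figure D4:**
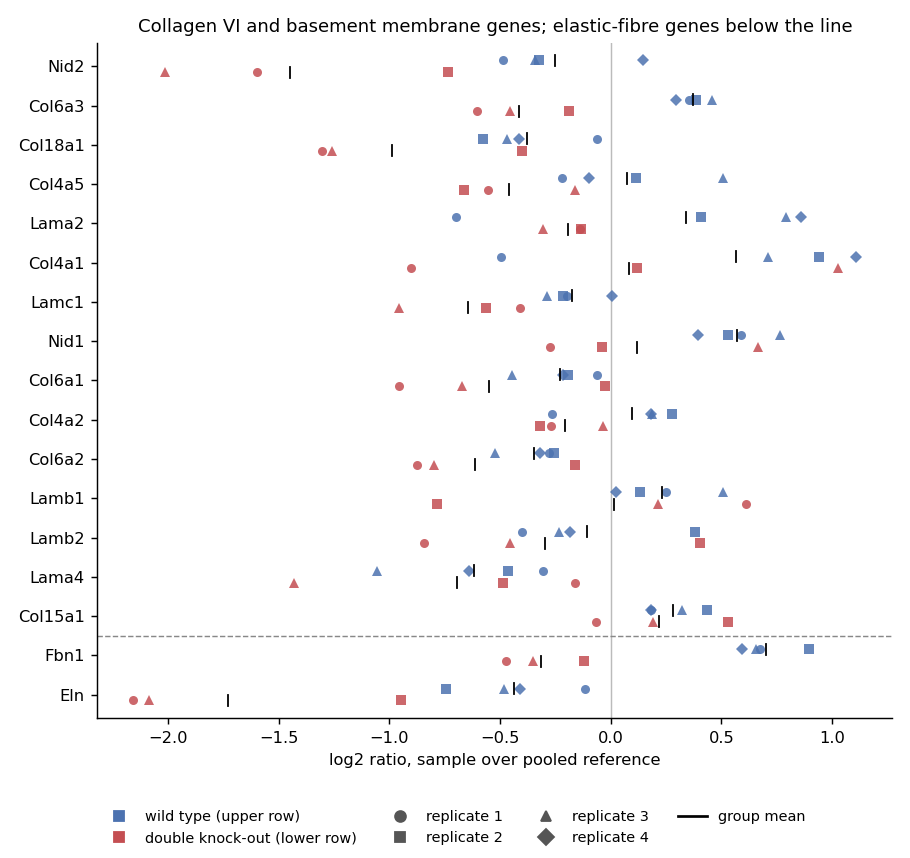
Log2 ratio of sample over pooled reference (x axis) for the 15 tested genes of the collagen VI and basement membrane list, sorted by difference. Fbn1 and Eln are below the dashed line. Points are arrays shaped by replicate number, wild type above and double knock-out below, and ticks are group means. The double knock-out mean lies to the left of the wild type mean in each gene, and Col6a3, Nid2, Lamc1, Fbn1 and Eln have separate groups.

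Growth factor pathways that act on matrix genes had small shifts. The list of TGF-beta ligands, receptors and targets had 13 of 17 genes below 0, a median of -0.26 and array means that did not overlap, from -0.19 to 0.24 in wild type and from -0.40 to -0.27 in double knock-out. Without double knock-out 1, 14 of the 17 were below 0 and the median was -0.16. Tgfb2, one of its ligands, read 0.66, 0.31, -0.00 and -0.24 in wild type and -2.06, -0.48 and -1.22 in double knock-out. Wnt effectors and targets had 14 of 20 below 0, with a median of -0.16; Tcf7, a transcription factor of the pathway, differed by -0.66 (SE 0.265) with double knock-out arrays of -0.55, -0.51 and -0.57. In the BMP list, Smad9, a signal transducer, differed by -0.46 (SE 0.188) and Bmp1, a procollagen-cleaving protease, by 0.41 (SE 0.187). The Smad9 signal was well above background on 3 wild type arrays and on only 1 double knock-out array. Immediate-early and ERK feedback genes had 19 of 25 below 0 and a median of -0.57, but their wild type arrays ran from -0.91 to 0.37 and overlapped with double knock-out. Egr2 among them read -2.40 on wild type 1 and 1.79 on wild type 4.

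Lists close to the known actions of p27 and stathmin had 0 genes called. Of the CDK inhibitors, 3 of 8 were above 0 and 5 below; Cdkn1a, which encodes p21, read -0.58, -0.36, -0.91 and -0.92 in wild type and 0.02, -0.20 and -0.33 in double knock-out, a difference of 0.53 (SE 0.293). None of the 13 G1 cyclins and kinases, 29 DNA replication genes and 35 mitosis genes with all 7 values had separate groups, beside 6.35% of all genes, and the list medians were -0.02, 0.07 and -0.07. Mitosis genes were below 0 in 31 of 35 with the slide as a block (median -0.25) and above 0 in 22 without slide 1 (median 0.02). DNA replication genes had a median of -0.04 with that block and of 0.25 without slide 1, so neither list had a settled direction. Of 13 E2F factors and pocket proteins, 5 were above 0 and 8 below, with a median of -0.15, and 2 (15.4%) did not overlap. Both were higher: Tfdp1, a dimerization partner of E2F, differed by 0.22 and Rbl2, the pocket protein p130 that represses E2F targets in resting cells, by 0.39 (SE 0.267). Of 15 tubulins, 12 were above 0 with a median of 0.10, and of 25 microtubule-associated proteins, 19 were below 0 with a median of -0.13. Map1b, a microtubule-binding protein of growing axons, read 1.05, 0.26, 0.33 and 0.24 in wild type and -0.01, -0.31 and 0.01 in double knock-out, a difference of -0.58 (SE 0.246), beside -0.79 in p27 and -0.67 in stathmin knock-out. The other tested stathmin genes, Stmn2 and Stmn4, differed by -0.97 (SE 0.673) and 0.75 (SE 0.568). In the list of Ras proteins and their regulators 17 of 23 were below 0, with a median of -0.08. Rapgef3, an exchange factor for Rap that is activated by cyclic AMP, differed by 0.42 (SE 0.17).

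Among contractile genes, the tropomyosin gene Tpm4 read 0.84, 1.47, 0.94 and 1.27 in wild type and 1.71, 1.68 and 1.98 in double knock-out. Its groups were separate at a difference of 0.66 (SE 0.244). Of it, 0.20 (SE 0.131) lay in the sample channel, and the reference channel read 0.46 lower on the double knock-out arrays. The contractile list had 14 of 20 genes above 0, with a median of 0.11, and without double knock-out 1 it had 16 above 0 and a median of 0.34. Lysosome and autophagy genes were above 0 in 15 of 22, with a median of 0.05 and array means of -0.27 to -0.13 in wild type and -0.13 to -0.02 in double knock-out. The cathepsin gene Ctsb differed by 0.62 (SE 0.44), of which 0.27 lay in the sample channel. Cholesterol synthesis genes were above 0 in 19 of 24, with a median of 0.15, and of 0.25 without double knock-out 1; Lss and Fdft1, which make lanosterol and squalene, differed by 0.52 (SE 0.36) and 0.45 (SE 0.373). Of the remaining higher genes with the smallest p, Tert, the catalytic subunit of telomerase, differed by 0.67 (SE 0.211) and Il1rl2, the receptor for interleukin-36, by 0.64 (SE 0.196).

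Interferon-stimulated genes differed more between double knock-out arrays than between genotypes. All 35 were above 0, with a median of 0.86 and 0 called. The median difference of this list from wild type was 1.78 in p27 knock-out and 1.31 in stathmin knock-out. Their mean was 0.38 on double knock-out 1, -1.14 on double knock-out 2 and -1.77 on double knock-out 3, against -1.81 to -1.53 on the wild type arrays. Double knock-out 3 thus lay inside the wild type range, and 1 array carried most of the difference: without double knock-out 1, 29 of 35 were above 0 and the median was 0.20. Stat2, a subunit of the interferon-activated transcription factor ISGF3, read -0.67, -1.46, -1.98 and -1.97 in wild type and 0.60, -0.12 and -1.07 in double knock-out. Bst2, which tethers budding virus particles to the cell, read 0.98 on double knock-out 1 and -1.86 on double knock-out 3.

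ISGF3 binds the interferon-stimulated response element. RefSeq promoter windows (GRCm38.p6, 250 bases before to 50 after the gene start) were matched for 25 of the 36 listed genes and searched for GAAA, any 2 bases and GAAA again, on both strands, so that the same element on the other strand reads TTTC, any 2 bases and TTTC. Of these 25 windows, 15 (60%) hold at least 1 match, against 1079 of 27025 genes (3.99%) with such a window. The windows of the 4 listed genes with the smallest p that have a match before the gene start are shown because all members of this list lay on the same side of 0. Capitals mark the matches, joined where 2 overlap. Each line gives the gene strand, with coordinates in GRCm38.p6.

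Stat2, chr10:128270248-128270320, plus strand: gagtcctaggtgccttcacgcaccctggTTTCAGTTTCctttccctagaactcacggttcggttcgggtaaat

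Bst2, chr8:71537558-71537637, minus strand: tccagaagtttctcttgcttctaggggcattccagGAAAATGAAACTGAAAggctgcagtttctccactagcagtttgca

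Oas1a, chr5:120907526-120907580, minus strand: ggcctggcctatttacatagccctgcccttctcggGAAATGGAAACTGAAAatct

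Irgm1, chr11:48871421-48871485, minus strand: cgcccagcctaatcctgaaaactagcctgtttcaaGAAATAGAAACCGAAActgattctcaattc

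The match begins 222 bases before the gene start in Stat2, on the strand opposite to the gene, and 130, 20 and 30 bases before it in Bst2, Oas1a and Irgm1. A match describes these letters and shows no binding.

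Other immune lists varied between arrays in other ways. MHC class I and antigen presentation genes were above 0 in 16 of 17, with a median of 0.69, and their mean was 0.52 on double knock-out 1 against -0.55 and -0.87 on the other double knock-out arrays. Without double knock-out 1, 11 were above 0 and 5 below, and the median was 0.18. In the single knock-outs the median difference of this list from wild type was 1.15 for p27 and 0.80 for stathmin. The class I gene H2-T22 read 1.05, -0.30 and -0.60 in double knock-out and -1.39 to -0.81 in wild type. Macrophage and blood markers were above 0 in 22 of 22, with a median of 0.69, but their means were -2.49, -0.14 and 1.42 on the double knock-out arrays and -1.94 to -0.52 on the wild type arrays. Double knock-out 1 therefore had the highest interferon mean and the lowest macrophage mean of the 7 arrays, and double knock-out 3 the highest macrophage mean. Csf1r, the receptor for macrophage colony-stimulating factor, read -1.33, 0.16 and 1.70 in double knock-out. The median of the macrophage list without double knock-out 1 was 1.77. The part of these cells in the differences of other genes was not tested.

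**Figure D5:**
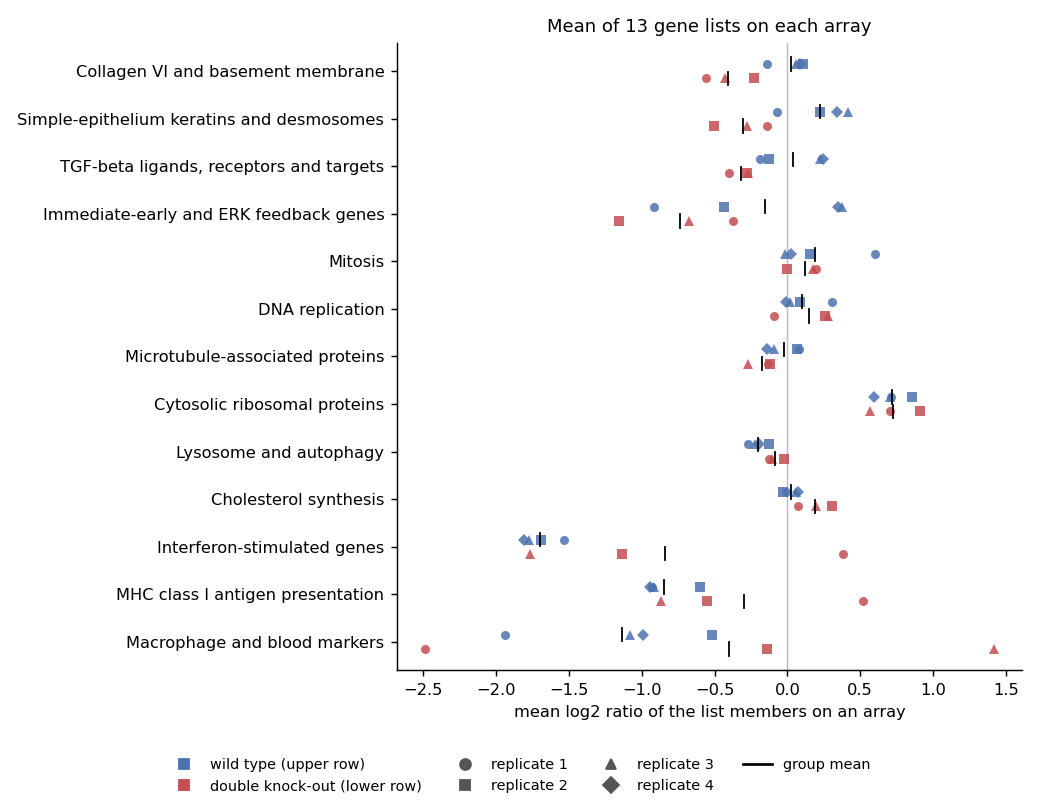
Mean log2 ratio of the members of 13 gene lists (x axis) on each array; points are arrays shaped by replicate number, wild type above and double knock-out below, and ticks are group means. The collagen VI and basement membrane list separates the genotypes with means of -0.56 to -0.23 against -0.14 to 0.10, while the interferon and macrophage lists spread most within double knock-out, from -1.77 to 0.38 and from -2.49 to 1.42.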

How the data were processed

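The scanner files were made with Feature Extraction 9.1.3.1 without background subtraction, per the file headers; spot signals and local backgrounds are deposited in units of intensity. The deposited LogRatio is a log10 of red over green, per the file headers. The value table that the authors deposited holds log2 ratios of sample over reference, a scale and direction read from its agreement with the scanner ratios (per array r = 0.821 to 0.936); its column medians were 0 to 0.0489, and its normalization is not given in the sources used here. No aligner or genome applies.

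In limma 3.58.1 (R 4.3.3), 43379 non-control spots per array were corrected by normexp with an offset of 50, normalised within arrays by loess, freed of outlier spots and averaged over 41174 probes. Probes entered the test when Cy5 exceeded background clearly on 3 or more arrays of a genotype (27698 probes). RefSeq names came by accession for 18204 probes, by symbol for 4017 and by older symbol for 1906; 3571 kept the file's name. The brightest tested probe stood for its gene. All 15 arrays were fitted with a mean per genotype; p-values were moderated by limma, two-sided, and adjusted by the Benjamini-Hochberg method.

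Double knock-out and wild type arrays of the same replicate number deviated together (residual r = 0.196, 0.263 and 0.288). Those on the same slide had 0.196, -0.255 and 0.247. The replicate numbers were therefore taken as pairs in an alternative with a replicate block, a choice drawn from these data. Named genes were both targeted genes, the 14 smallest p on each side among RefSeq symbols with all 7 values, up to 4 smallest p of each of 46 gene lists, and the 4 smallest within 10 Mb of each targeted gene; some of these are not reported here. The arrays, lists and rules were chosen with earlier results of these data known. On simulated data with 17994 independent genes, the fit recovered 44% of genes changed by 1 and 80% of those changed by 2 on the log2 scale. The simulated noise was independent between genes and arrays, unlike the real arrays, so these shares need not hold for the real data. Alternatives covered background, normalization, filter, probe choice, blocks, weights, variance model and arrays left out. Chosen after seeing the data were the replicate block, list counts without double knock-out 1, wild type 3 and 4 averaged, and Cy5 alone.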

Additional observations from a re-analysis of the deposited data

Results flagged for a closer look

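Groups of 4 wild type arrays were checked for 1 array far from the other 3 in 127 genes, probes and list means, and 8 had one, where chance alone gives about 1 in 20. The 8 are thus near the number that chance gives. Double knock-out, with 3 arrays, could not be checked in this way. Wild type 2 stood apart in 5 of the 8. It read 0.40 for Krt7 against a group median of 1.06, so it was the wild type array nearest to double knock-out. For Trim11, a ubiquitin ligase gene among the higher ones, it read -0.25 against -0.47, and for the tubulin gene Tubb2a 0.41 against -0.03. The mean of the MHC class I list on that array was -0.60 against a median of -0.92, and the mean of glycolysis and hypoxia targets was -0.079 against -0.36.

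Wild type 1 stood apart in the other 3. It read 1.05 for Map1b against a group median of 0.30, 0.20 for Xist against -2.05, and -1.97 for the mean of inflammatory chemokines and cytokines against -1.20.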

How the results depend on the processing

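Of 74 named genes followed through 25 alternatives, 71 kept the sign of their difference in all of them; the exceptions were Dcx, Xist and Ddx3y. These genes were largely named for a small p in this same contrast, and the alternatives reuse the same arrays. The kept signs are therefore no independent support for the differences. Dcx, a microtubule-associated protein gene, read 0.013 with the stricter filter, where a different probe stood for it. Xist read -0.011 with the replicate block and between -0.49 and 0.99 when arrays were left out in turn. Ddx3y read between -3.83 and 0.31 with arrays left out, and 0.11 without slide 1. The number of genes called was 1 with the authors' value table, the scanner LogRatio, the replicate block, the slide block and the slide as a random block, each time Rpl11, and 1 without slide 1, then Pdik1l. With array weights it was 11, among them Rpl11, Pdik1l, Krt7, Irx3, Efcab7 and Ocel1. Leaving out single arrays gave 0 to 1, the 1 being Rpl11 without wild type 4. Apart from Rpl11 the replicate block changed no call. The number of genes without overlap was 1155; it ran from 1405 to 3593 with single arrays left out, since fewer arrays overlap less often, and was 5740 without slide 1. The Stmn1 probe A_52_P319161 kept its difference of -3.52 with a trended, robust variance, but its adjusted p was 0.0666 there. The other Stmn1 probe, A_51_P495641, ran from -0.27 to 0.0043 with arrays left out. Near background, as for Clec12b and the dim Cdkn1b probes, the offset draws ratios toward 0. With 3 against 4 arrays, differences under about 0.52 lie inside the typical interval.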
